A study of Mus musculus with 18 samples.

Results

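The genes described here are the axon guidance ligands and receptors of the mouse: the semaphorins of classes 3 to 7, the plexins, the neuropilins, Slit1 to Slit3, Robo1 to Robo4, the ephrins and the Eph receptors. They were chosen by symbol alone, and 60 of the 23951 genes in the table matched. RNA came from cells sorted out of fresh mouse pancreas or pancreatic ductal adenocarcinoma, in 18 libraries of 5 groups. Normal pancreatic fibroblasts (NPF, label mNPF, n = 3) carried K-Ras+/+, Elas-tTA/tetO-Cre and Rosa26+/EYFP. Cancer-associated fibroblasts (WT_CAF, label Saa3_WT_CAF, n = 5) and tumor cells (WT_tumor, label Saa3_WT_Tumor, n = 4) came from mice with K-Ras+/LSLG12Vgeo and Trp53lox/lox besides the same Cre and EYFP alleles. KO_CAF (label Saa3_KO_CAF, n = 3) and KO_tumor (label Saa3_KO_Tumor, n = 3) had Saa3-/- added to that genotype. Cre was thus present in every group, NPF included, and was driven through the tetracycline transactivator Elas-tTA, whose elastase promoter is active in acinar cells. Neither age nor the sort markers are stated in the labels. The series design calls the replicates biological, and whether fibroblasts and tumor cells of one mouse were both sequenced is not stated.

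Guidance cues were named for steering growing axons, and many of them also act outside the nervous system. Slits are secreted proteins that bind Robo receptors. Class 3 semaphorins are secreted and mostly bind neuropilins, which pair with plexins of class A or with Plxnd1, whereas Sema3e binds Plxnd1 directly. Class 4 to 7 semaphorins are held at the membrane and bind plexins. Ephrins are membrane-bound ligands of Eph receptor tyrosine kinases and can signal back into the cell that carries them, and in vessels Efnb2 marks arteries and Ephb4 marks veins. In pancreatic cancer this gene family is known as a set recurrently altered in tumors.

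Values are FPKM, fragments per transcript length and mapped fragments, so that levels can be set side by side between genes. Differences are in log2(FPKM + 1), given ± standard error (SE), from 1 limma fit of all 13369 genes that reached 1 FPKM in at least 3 libraries. Adjusted p is the Benjamini-Hochberg value over all of those genes, and a gene was called when it was under 0.05. The scale understates the change of low genes. The fit held a term for the form of the index in the labels, which was absent in 5 libraries (NPF 1 to 3, WT_CAF 1 and 2), 6 bases long in 8 and 16 bases long in 5.

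Saa3, the deleted gene, was near zero in the knockout groups, with 1.85, 1.16 and 0.434 FPKM in the KO_CAF libraries and 0.346, 0 and 0 in those of KO_tumor. The WT_CAF libraries had 7.24, 892, 4278, 1182 and 2269.5 FPKM, those of WT_tumor 4.10, 2.75, 106 and 3.13, and those of NPF 331, 5.32 and 3.13. The library labelled WT_CAF 1 was thus far below the other WT_CAF libraries. Its 9 fibroblast markers summed to 883.5 FPKM, against 7471 to 23470 in the other 7 libraries of tumor fibroblasts. Its 9 epithelial markers summed to 626.6 FPKM, against 2.62 to 346.9 in those 7 and 2925 to 8562 in tumor cells. Most of that epithelial sum was Krt8, Krt18 and Krt19, at 251.6, 244.8 and 118.9 FPKM. Cdh1 was at 10.1, and Epcam, Krt7, Cldn4, Cldn7 and Esrp1 were at 0.472 or less. In log2(FPKM + 1), the mean of the 9 epithelial markers was 3.08 in WT_CAF 1. It was 4.20 in WT_CAF 5, 3.61 in KO_CAF 1 and 0.328 to 2.40 in the other tumor fibroblasts. Collagen markers were listed at 0 in some fibroblast libraries, Col3a1 in WT_CAF 2, 3 and 4 and in KO_CAF 1 and 2, and Col1a1 and Col1a2 in KO_CAF 2, although Col3a1 stood at 5661 FPKM in WT_CAF 5 and 9049.7 in KO_CAF 3. Without these 3 genes, left out after their values were seen, the 6 other fibroblast markers summed to 102.8 FPKM in WT_CAF 1, 1800 to 11340 in the other 7, 131.4 in WT_tumor 3 and 3.19 to 33.6 in the other tumor cells. Over the 48 guidance genes tested, 32 had a level in WT_CAF 1 that lay nearer to the mean of the tumor cells than to that of the other tumor fibroblasts. The same was not counted over all genes, so this describes the library and not a trait of guidance genes. Among the tumor cells, WT_tumor 3 had the most fibroblast marker signal (679.0 FPKM, against 12.9 to 155.3 in the other 6) and WT_tumor 4 the least Epcam (2.60 FPKM, against 128.6 to 586 in the other 6). The 8 acinar markers summed to 13.4 FPKM in WT_tumor 4, 8.40 in KO_tumor 1 and 1879 to 19060 in the other tumor cells. In tumor fibroblasts they summed to 13.0 to 579.2 FPKM. The part of this acinar signal in the comparisons was not tested. Endothelial markers, which matter here because vessels use the same cues, summed over all 9 to 1.23 to 44.9 FPKM, and Pecam1 was at 4.0 FPKM or less. Kdr was at 29.3 and Esam at 11.1 in WT_CAF 5, and at 8.79 and 7.55 or less elsewhere. Tek was at 20.1 in NPF 3 and at 8.18 or less elsewhere. Cdh5, Tie1, Emcn, Cldn5 and Egfl7 were at 5.43 or less in every library. Sox10, a Schwann cell marker, was listed at 0 in every library but WT_CAF 5 and KO_CAF 3, where it was at 0.0245 and 0.0547 FPKM.

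Of the 60 guidance genes, 48 passed the filter on low values. The other 12 were Efnb3, Epha5, Epha6, Epha8, Epha10, Ephb1, Plxnb3, Plxnc1, Robo2, Robo3, Robo4 and Sema5b. They ranged from Epha10, at 0.0261 FPKM in its highest library, to Robo2, at 3.98 FPKM in NPF 3. Between 28 and 44 of the 60 reached 1 FPKM in a library. Slit3 had the highest level of all 60 in every library of NPF and KO_CAF and in 4 of the 5 of WT_CAF, and Epha2 had the highest mean in both tumor cell groups.

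**Figure D1:**
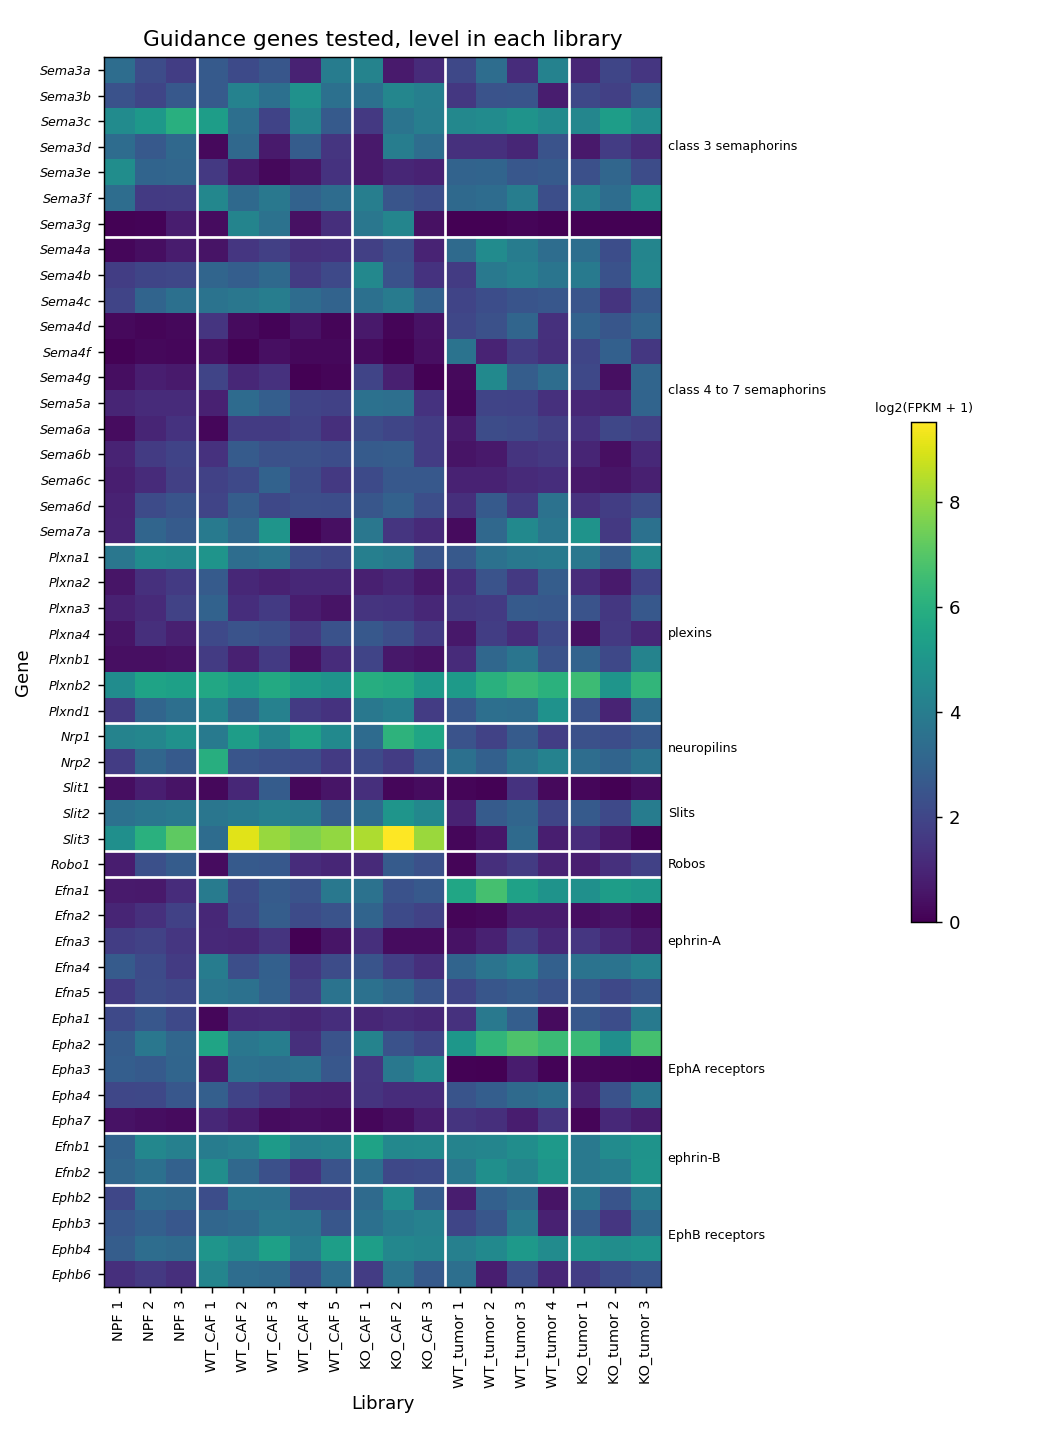
Level of the 48 guidance genes that passed the filter, in log2(FPKM + 1) (color), in each of the 18 libraries (columns, white lines between groups), with genes in rows by role. Slit3 is the brightest row in the fibroblast columns except WT_CAF 1 and is dark in the tumor cell columns, where Epha2, Plxnb2 and Efna1 are brightest.

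The sequences just upstream of the transcription start are shown for the 4 genes that head the comparisons: Slit3 and Epha3, which were lower in tumor cells, Epha2, which was higher, and Sema3e, which differed in the fibroblasts as well. They are the 250 bases before the start in RefSeq (GRCm38.p6), 5′ to 3′ on the gene's strand, with GC boxes (GGGCGG or its reverse complement CCGCCC) in capitals.
Slit3 (chr11:35121206-35121455, plus strand): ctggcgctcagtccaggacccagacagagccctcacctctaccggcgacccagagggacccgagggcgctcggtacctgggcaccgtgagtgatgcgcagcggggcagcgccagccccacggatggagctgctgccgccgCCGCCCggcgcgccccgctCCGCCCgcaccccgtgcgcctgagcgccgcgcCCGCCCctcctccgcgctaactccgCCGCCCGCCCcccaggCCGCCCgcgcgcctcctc
Epha3 (chr16:63864176-63864425, minus strand): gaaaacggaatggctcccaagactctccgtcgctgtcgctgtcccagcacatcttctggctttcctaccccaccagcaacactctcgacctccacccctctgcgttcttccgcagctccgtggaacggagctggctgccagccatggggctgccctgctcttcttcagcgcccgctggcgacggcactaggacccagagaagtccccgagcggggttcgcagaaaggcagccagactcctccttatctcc
Epha2 (chr4:141300971-141301220, plus strand): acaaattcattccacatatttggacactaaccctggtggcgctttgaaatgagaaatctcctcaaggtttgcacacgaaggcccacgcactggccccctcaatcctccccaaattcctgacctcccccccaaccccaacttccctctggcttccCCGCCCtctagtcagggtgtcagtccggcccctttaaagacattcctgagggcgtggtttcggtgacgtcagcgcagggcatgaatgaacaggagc
Sema3e (chr5:14025026-14025275, plus strand): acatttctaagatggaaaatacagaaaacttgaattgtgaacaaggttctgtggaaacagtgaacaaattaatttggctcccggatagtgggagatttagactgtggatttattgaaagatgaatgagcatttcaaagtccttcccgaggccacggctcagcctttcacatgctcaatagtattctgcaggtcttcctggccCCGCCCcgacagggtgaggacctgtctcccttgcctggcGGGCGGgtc
The Slit3 window held 6 GC boxes, a pair of them overlapping, and 35 CpG. That of Sema3e held 2 GC boxes and 7 CpG, that of Epha2 held 1 GC box and 9 CpG, and that of Epha3 held no GC box and 16 CpG. RefSeq had entries for 53 of the 60 genes, with 69 starts. A GC box was found on either strand in 71.0% of those starts, against 32.7% of all 32851 starts in the table, and the median CpG count was 15 against 6. TATAAA was found in 2.90% of the starts (12.4% of all), CACCTG, an E-box, in 14.5% (17.2% of all), and the AP-1 letters TGACTCA or TGAGTCA in 2.90% (4.46% of all). None of the windows shown held any of these other motifs. These matches describe the letters and not binding, and genes higher in tumor cells (Epha2) and lower (Slit3) were among those with a GC box.

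The comparison of tumor cells with fibroblasts asked which guidance genes the compartments of the tumor express, once with Saa3 and once without it. With Saa3 intact, limma called 10 of the 48 tested guidance genes higher and 9 lower in WT_tumor than in WT_CAF, beside 9.05% and 12.5% of all genes tested. Without Saa3, 9 were called higher and 10 lower in KO_tumor than in KO_CAF, beside 13.0% and 15.4% of all genes. In each comparison 19 of 48, or 39.6% of the tested guidance genes were called, beside 21.5% and 28.4% of all genes, and 27 and 24 had an unadjusted p under 0.05 (35.9% and 41.3% of all genes). The ligands Efna1, Efnb2, Sema3e, Sema4a, Sema4d and Sema4f and the receptor Epha2 were higher in both comparisons, which is 70.0% of the first list and 77.8% of the second. Slit3, Sema3b, Sema4c, Sema6b, Sema6c, Efna2, Nrp1 and Epha3 were lower in both, 88.9% of the first list and 80.0% of the second. Of all genes tested, 6.98% were called higher and 10.4% lower in both. The median difference over the tested guidance genes was 0.01 with Saa3 and -0.04 without it (0.07 and 0.05 over all genes tested), so genes above and below zero were balanced, 24 of 48 in each comparison.

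The 2 comparisons share no library, although they share the index term and the estimate of spread. Their differences correlated across the 48 genes with Pearson's r = 0.93 and Spearman's rho = 0.89, given as a description because genes are not independent replicates, and 42 of 48 had the same sign. Each of the 19 called genes kept its direction among the libraries with a 6-base index (3 WT_tumor against 1 WT_CAF, 2 KO_tumor against 2 KO_CAF) and among those with a 16-base index (1 against 2, 1 against 1). The genes were called from these same libraries, so this agreement was largely fixed by the calls and is given only as a description. Without overlap between the groups stood 4 genes higher and 7 lower with Saa3 (5.66% and 7.01% of all genes) and 12 higher and 12 lower without it (20.6% and 21.3%). WT_CAF 1 and 2 are the only libraries outside NPF without an index, so with the index term the size of each difference between WT_CAF and tumor cells rests on WT_CAF 3 to 5. Leaving out WT_CAF 1 or 2 moved no such size and altered only the estimate of spread. The fit without the index term used all 5 and called 9 higher and 9 lower with Saa3 (1239 and 1572 over all genes). Leaving out both WT_CAF 1 and WT_tumor 4 gave 12 higher and 11 lower with Saa3 and 13 higher and 11 lower without it. Over the 13277 genes then tested, 1579 were higher and 1883 lower with Saa3, and 2085 and 2359 without it. The fit of all libraries gave 1210 and 1670 of 13369 with Saa3, and 1741 and 2057 without it. Leaving out WT_CAF 3 gave 8 higher and 5 lower with Saa3 (440 and 761 of 13311 genes). A fit of the compared groups alone gave 5 higher and 6 lower (238 and 504 of 13369). In bulk RNA, fewer cells of a type in a sample and less RNA per cell cannot be told apart.

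**Figure D2:**
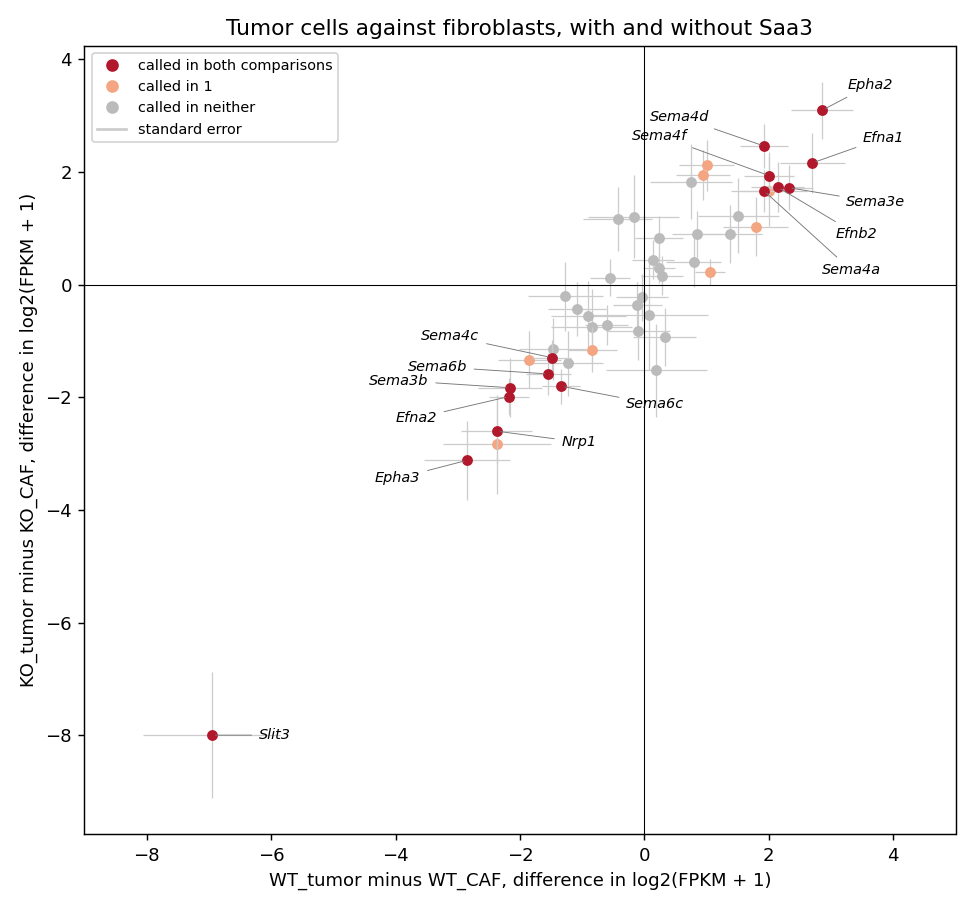
Difference in log2(FPKM + 1) between tumor cells and fibroblasts for the 48 tested guidance genes, with Saa3 (x axis) and without it (y axis), bars showing the standard error. Slit3 sits alone at the lower left (-6.95 and -8.0), and the genes called in both comparisons lie at the lower left and the upper right.

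Slit3, a secreted ligand of Robo receptors, was higher in fibroblasts than in tumor cells. It stood at 25.9, 64.9 and 139.8 FPKM in NPF, at 9.33, 539, 261, 201 and 252 in WT_CAF and at 323, 729 and 273 in KO_CAF. In tumor cells it stood at 0.109, 0.503, 8.83 and 0.728 (WT_tumor) and 1.32, 0.566 and 0.0633 (KO_tumor). The 7 tumor fibroblast libraries other than WT_CAF 1 lay between 201.5 and 729 FPKM, all above every tumor cell library, and WT_CAF 1 was just above the highest tumor cell library, WT_tumor 3. Slit3 alone made up 37.4% to 61.1% of the summed FPKM of all 60 guidance genes in those 7 libraries, 1.77% in WT_CAF 1, 10.4% to 29.0% in NPF and at most 1.46% in tumor cells. The difference was -6.95 ± 1.10, adjusted p = 0.0011 with Saa3 and -8.0 ± 1.12, adjusted p = 4e-04 without it, the largest in size of the guidance genes in both comparisons. WT_tumor 3 was also the tumor cell library with the most fibroblast marker signal, whose part in its Slit3 level was not tested.

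Slit2, the other abundant Slit, stood at 12.3, 13.8, 16.7, 15.4 and 6.03 FPKM in WT_CAF and 0.872, 5.61, 7.60 and 2.93 in WT_tumor, and at 9.28, 30.1 and 20.9 in KO_CAF and 5.48, 3.28 and 14.9 in KO_tumor. It was lower in WT_tumor (-1.85 ± 0.51, adjusted p = 0.019), and the KO groups overlapped (-1.33 ± 0.51, adjusted p = 0.067). Without WT_CAF 3, WT_CAF 4 or WT_tumor 1 its adjusted p was 0.084, 0.069 and 0.12. Slit1 was under 1 FPKM in 14 of the 18 libraries and was called in neither comparison. Of the Robo receptors only Robo1 passed the filter, at 0.715, 3.99 and 5.87 FPKM in NPF, 0.244, 5.40, 5.14, 1.31 and 1.04 in WT_CAF, 1.19, 5.69 and 4.07 in KO_CAF, 0.105, 1.46, 2.18 and 0.911 in WT_tumor and 0.761, 1.49 and 2.58 in KO_tumor, with all groups overlapping and no call. Robo2, a neuronal Slit receptor, had 0.244, 1.93 and 3.98 FPKM in the NPF libraries and 0.36 or less in every other. Robo3, which guides commissural axons, had 0.0910, 0.324 and 0.194 FPKM in NPF and was listed at 0 in all 15 other libraries. Robo4, the Robo of endothelial cells, reached 1.04 FPKM in NPF 3, the library with the most Pecam1, and 0.266 or less elsewhere.

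The class 3 semaphorins divided between the compartments. Sema3e, the ligand of Plxnd1, was higher in tumor cells, at 7.14, 7.27, 4.93 and 5.49 FPKM in WT_tumor and 4.04, 7.89 and 3.65 in KO_tumor. The WT_CAF libraries had 2.01, 0.566, 0.164, 0.442 and 1.65 and those of KO_CAF 0.553, 1.01 and 0.871. The lowest tumor cell library was above the highest tumor fibroblast library, with 2.32 ± 0.40, adjusted p = 0.0016 and 1.72 ± 0.40, adjusted p = 0.0071 in the comparisons with and without Saa3. Sema3b went the other way, at 5.40, 17.6, 10.5, 26.7 and 10.4 FPKM in WT_CAF and 10.4, 19.6 and 16.1 in KO_CAF, against 1.88, 4.36, 4.59 and 0.677 and 3.15, 2.48 and 5.15 in the matching tumor cells. Its groups did not overlap, with -2.16 ± 0.51, adjusted p = 0.0093 and -1.83 ± 0.52, adjusted p = 0.019. The call without Saa3 was lost when KO_CAF 2, KO_CAF 3, KO_tumor 1 or KO_tumor 2 was left out (adjusted p 0.058 to 0.083), and that with Saa3 in a fit of the compared groups alone (0.098).

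Sema3c and Sema3g were called in 1 comparison each. Sema3c, which binds both neuropilins, stood at 20.8, 23, 28.8 and 22.3 FPKM in WT_tumor and 37.9, 10.2, 2.77, 19.2 and 5.47 in WT_CAF (2.0 ± 0.61, adjusted p = 0.033). Its highest library here was WT_CAF 1, the groups overlapped, and the call was lost when any of WT_CAF 3, WT_CAF 5, KO_CAF 3 or WT_tumor 2, 3 or 4 was left out (adjusted p 0.052 to 0.22), with no filter (0.057) and in a fit of the compared groups alone (0.12). Without the index term the difference was 1.08 (adjusted p = 0.22). Sema3g varied widely within the fibroblasts, at 0.240, 18.7, 11.1, 0.330 and 1.43 in WT_CAF and 12.7, 19 and 0.344 in KO_CAF, and was at 0.107 or less in all tumor cells. It was called without Saa3 (-2.84 ± 0.88, adjusted p = 0.028), a call lost without KO_CAF 1, KO_CAF 2, KO_tumor 1 or KO_tumor 3 (adjusted p 0.074 to 0.12) or with no filter (0.051). Without WT_CAF 1, Sema3g was also called with Saa3 (-2.37 ± 0.64, adjusted p = 0.016) and Sema3c without it (1.66 ± 0.58, adjusted p = 0.042). Both of these calls were made without WT_CAF 2 as well. Sema3a, Sema3d and Sema3f were called in neither comparison.

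Nrp1, a receptor shared by class 3 semaphorins and VEGF, was lower in tumor cells. Nrp2 was called higher when either WT_CAF 1 or WT_CAF 2 was left out. Nrp1 stood at 18.3, 19.9 and 27.1 FPKM in NPF, 13.7, 38.3, 18.6, 42.7 and 21.7 in WT_CAF and 8.90, 69.6 and 47.4 in KO_CAF. In tumor cells it stood at 4.44, 2.65, 5.67 and 2.37 and 4.10, 3.78 and 5.18. Every fibroblast library, WT_CAF 1 included, was above every tumor cell library, with -2.38 ± 0.57, adjusted p = 0.01 and -2.60 ± 0.58, adjusted p = 0.0056. Without WT_CAF 3 the first adjusted p was 0.051, and in a fit of the compared groups alone the second was 0.053. Nrp2 was at 10.5, 6.51, 11.8 and 17.7 FPKM in WT_tumor and 9.55, 7.36 and 11.5 in KO_tumor, and at 2.06 to 5.12 in all tumor fibroblasts but WT_CAF 1, at 60.9. With all libraries its differences were 1.51 ± 0.65, adjusted p = 0.11 and 1.22 ± 0.66, adjusted p = 0.18, and without WT_CAF 1 the adjusted p values were 0.014 and 0.035. Without WT_CAF 2 instead, Nrp2 was called in both comparisons as well, so these calls are not particular to leaving out WT_CAF 1. Either omission left the sizes unchanged.

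Among the membrane-bound semaphorins, class 4 split into members of the tumor cells and members of the fibroblasts. Sema4a was at 8.73, 23.1, 14.9 and 9.57 FPKM in WT_tumor and 9.74, 3.80 and 19 in KO_tumor, against 0.407, 1.86, 2.45, 1.49 and 1.63 in WT_CAF and 2.47, 3.88 and 0.913 in KO_CAF. The groups were apart with Saa3 (1.92 ± 0.37, adjusted p = 0.003) and overlapped by 1 library on each side without it (1.67 ± 0.37, adjusted p = 0.0056). Sema4d, the ligand of Plxnb1, was at 3.04, 4.11, 7.61 and 1.48 FPKM in WT_tumor and 6.98, 4.85 and 7.60 in KO_tumor. It was under 0.56 FPKM in every tumor fibroblast library but WT_CAF 1, at 1.73, with 1.92 ± 0.39, adjusted p = 0.004 and 2.46 ± 0.39, adjusted p = 0.00083. Sema4f was at 11.2, 0.947, 2.13 and 1.44 and 2.96, 6.58 and 1.95 in tumor cells and at 0.328 or less in all fibroblasts (2.0 ± 0.40, adjusted p = 0.0041 and 1.93 ± 0.41, adjusted p = 0.0041). In a fit of the compared groups alone, Sema4d and Sema4f had adjusted p of 0.067 and 0.059 in the comparison with Saa3, and without WT_tumor 1 the Sema4f difference was 1.31.

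Sema4c, a ligand of Plxnb2, was higher in the fibroblasts, at 11.5, 12.5, 15.5, 9.20 and 7.10 FPKM in WT_CAF and 10.5, 14.6 and 6.83 in KO_CAF against 2.87, 3.75, 4.55 and 4.97 in WT_tumor and 4.68, 1.73 and 5.10 in KO_tumor. No library crossed over, with -1.49 ± 0.31, adjusted p = 0.0048 and -1.30 ± 0.32, adjusted p = 0.0087. The class 6 members Sema6b and Sema6c followed the same direction at lower levels. Sema6b was at 1.58, 5.63, 4.12, 4.16 and 3.74 in WT_CAF and 0.398, 0.558, 1.70 and 2.02 in WT_tumor, overlapping through WT_CAF 1 (-1.55 ± 0.36, adjusted p = 0.0086), and at 5.68, 5.94 and 2.26 against 0.963, 0.314 and 1.16 in the KO groups (-1.59 ± 0.37, adjusted p = 0.0066). Sema6c was at 2.59, 3.32, 6.91, 3.54 and 2.01 in WT_CAF and 0.856, 0.871, 1.19 and 1.38 in WT_tumor (-1.34 ± 0.31, adjusted p = 0.0081), and at 3.44, 5.21 and 5.15 against 0.529, 0.465 and 0.773 in the KO groups (-1.80 ± 0.31, adjusted p = 0.0013). Leaving out WT_CAF 3 took the first Sema6c value to -0.88 (adjusted p = 0.12), and a fit of the compared groups alone took the first Sema6b adjusted p to 0.091. Sema4b, Sema4g, Sema5a, Sema6a, Sema6d and Sema7a were not called. Sema5a was called lower in both comparisons without WT_CAF 1 (adjusted p 0.017 and 0.049), and likewise without WT_CAF 2.

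Of the plexins, the receptors of these semaphorins, 0 of the 7 tested were called with Saa3, beside 21.5% of all genes. Without it 2 were called, which is 28.6%, beside 28.4% of all genes. With Saa3, 1 had an unadjusted p under 0.05 (35.9% of all genes). Plxna3 was also called higher without Saa3 when WT_CAF 1 was left out (0.90 ± 0.31, adjusted p = 0.042), and likewise when WT_CAF 2 was. Without Saa3, Plxnb1 was higher in tumor cells, at 7.24, 3.19 and 18.1 FPKM against 2.85, 0.513 and 0.388 in KO_CAF, and the groups did not overlap (2.12 ± 0.45, adjusted p = 0.0042). In WT_tumor it was at 1.23, 8.16, 11.9 and 4.36 against 2.16, 0.816, 2.06, 0.333 and 1.28 in WT_CAF (1.0 ± 0.44, adjusted p = 0.12), and the difference between these effects was 1.12 ± 0.63 (adjusted p = 1). Plxna4 was lower in KO_tumor, at 0.354, 1.96 and 1.06 against 5.17, 3.87 and 2.06 (-1.16 ± 0.40, adjusted p = 0.042), a call lost in 12 of 27 alternatives (adjusted p 0.051 to 0.19), among them leaving out any one KO_CAF library. The most abundant plexin was Plxnb2, at 23.8, 44.6 and 41.5 FPKM in NPF, 50.6, 38.2, 53.7, 35.3 and 28.4 in WT_CAF, 60.3, 55.4 and 33.8 in KO_CAF, 35, 64.4, 83 and 67.2 in WT_tumor and 90.4, 30.2 and 75.3 in KO_tumor. All its groups overlapped. Sema4d and Plxnb1 were thus both at their highest means in the tumor cells (4.06 and 6.41 FPKM in WT_tumor, 0.494 and 1.33 in WT_CAF), while for the Sema4c and Plxnb2 pair the ligand was higher in the fibroblasts (11.2 against 4.03 FPKM) and the receptor was present in both (41.2 against 62.4).

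Efna1 and its receptor Epha2 were the leading ephrin and Eph of the tumor cells. Efna1 stood at 48.1, 102, 42.2 and 28.4 FPKM in WT_tumor and 26.5, 38.4 and 32.6 in KO_tumor. Fibroblasts had 14.4, 3.57, 5.67, 4.41 and 13 in WT_CAF and 11, 4.33 and 5.38 in KO_CAF. All 7 tumor cell libraries were above all 8 of tumor fibroblasts, with 2.70 ± 0.52, adjusted p = 0.003 and 2.16 ± 0.53, adjusted p = 0.0085. Epha2 stood at 31.7, 75.2, 114 and 88 FPKM in WT_tumor and 86.5, 25.9 and 104 in KO_tumor, and at 46.5, 12.8, 15.3, 1.44 and 4.38 in WT_CAF and 18.1, 4.31 and 2.92 in KO_CAF. The groups overlapped with Saa3 only through WT_CAF 1, at 46.5 FPKM, and WT_tumor 1, at 31.7. The differences were 2.86 ± 0.50, adjusted p = 0.0017 and 3.09 ± 0.51, adjusted p = 0.00093. In a fit of the compared groups alone, the first Efna1 adjusted p was 0.054.

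Efna2 and Epha3 were higher in the fibroblasts. Efna2 stood at 1.07, 3.17, 6.05, 3.46 and 4.37 FPKM in WT_CAF and 7.30, 3.40 and 2.70 in KO_CAF, against 0.0931, 0.154, 0.653 and 0.643 in WT_tumor and 0.289, 0.426 and 0.177 in KO_tumor. No tumor cell library reached the lowest fibroblast library (-2.17 ± 0.33, adjusted p = 0.00083 and -1.99 ± 0.33, adjusted p = 0.001). Epha3, a receptor known from mesenchymal and stromal cells, stood at 0.565, 10.6, 9.85, 10.6 and 4.99 in WT_CAF and 1.79, 13 and 21 in KO_CAF. In tumor cells it stood at 0.0285, 0.0162, 0.666 and 0.0653 and 0.123, 0.0948 and 0.0684, and the WT groups overlapped through WT_CAF 1 and WT_tumor 3. The differences were -2.85 ± 0.69, adjusted p = 0.011 and -3.12 ± 0.70, adjusted p = 0.0057. The first call was lost without WT_CAF 3 (adjusted p = 0.098) or WT_tumor 1 (0.056), and it was 0.050 in a fit of the compared groups alone.

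Of the remaining ephrin-A and EphA genes, Efna4 was higher in KO_tumor, at 11.5, 11.2 and 16.5 FPKM against 4.53, 2.42 and 1.46 in KO_CAF (1.94 ± 0.44, adjusted p = 0.0057). With Saa3 it was at 7.45, 11.5, 16.4 and 6.55 against 14.9, 3.82, 6.52, 1.94 and 3.66, overlapping through WT_CAF 1 (0.94 ± 0.43, adjusted p = 0.13). Epha4 was higher in WT_tumor, at 4.54, 6.10, 8.73 and 10.5 against 6.39, 2.77, 1.92, 0.819 and 0.781 (1.79 ± 0.52, adjusted p = 0.025), a call lost without WT_CAF 3, 4 or 5 or WT_tumor 1 (adjusted p 0.053 to 0.083). Epha7 was higher in WT_tumor at low levels, 1.71, 1.44, 0.695 and 1.80 FPKM against 1.11, 0.657, 0.245, 0.294 and 0.259 (1.05 ± 0.24, adjusted p = 0.0067), and its difference was 0.68 (adjusted p = 0.052) without the index term and its adjusted p 0.079 in a fit of the compared groups alone. In the KO groups Epha7 was at 0.105, 1.14 and 0.638 against 0.120, 0.288 and 0.692 (0.22 ± 0.24, adjusted p = 0.5). Efna3, Efna5 and Epha1 were called in neither comparison. Efna3 was listed at 0 in WT_CAF 4, where the median of its group was 1.04 FPKM.

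Efnb2 was the ephrin-B gene that was higher in tumor cells, at 12.5, 25.4, 18.5 and 29.8 FPKM in WT_tumor and 13.5, 15.5 and 29.2 in KO_tumor. It stood at 24, 8.22, 4.05, 1.60 and 4.34 in WT_CAF, where WT_CAF 1 was as high as tumor cells, and at 9.74, 3.21 and 3.41 in KO_CAF. The differences were 2.14 ± 0.43, adjusted p = 0.004 and 1.73 ± 0.44, adjusted p = 0.01, and the second adjusted p was 0.060 without KO_CAF 2 and 0.057 without the index term. Efnb1, the most abundant ephrin-B, stood at 7.03, 20.2 and 16.5 FPKM in NPF, 14.8, 17.2, 35.6, 16.7 and 18.1 in WT_CAF, 43.6, 21 and 21.1 in KO_CAF, 17.9, 19.3, 24.2 and 34.6 in WT_tumor and 13.4, 23.1 and 28.5 in KO_tumor, with overlap between tumor cells and fibroblasts. No EphB receptor was called in either comparison, with 1 of 4 tested at an unadjusted p under 0.05 in each (35.9% and 41.3% of all genes). Ephb4, the receptor of Efnb2, was the most abundant of them, at 29.9, 22.2, 41.4, 15.1 and 39.4 FPKM in WT_CAF and 16.8, 21.8, 33.2 and 23.2 in WT_tumor.

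**Figure D3:**
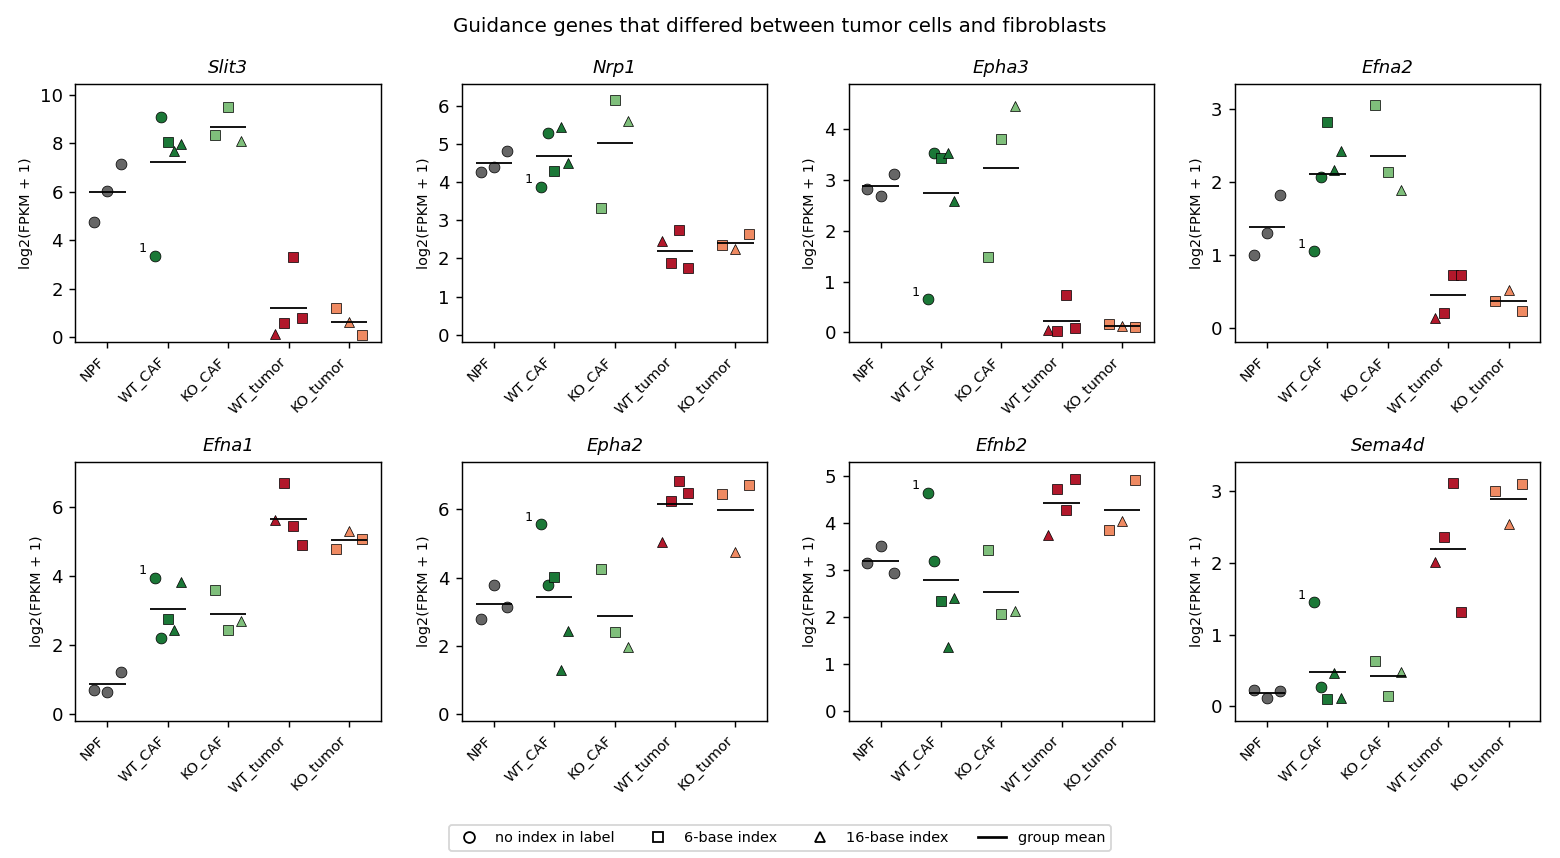
Level in log2(FPKM + 1) of 8 guidance genes that differed between tumor cells and fibroblasts, 1 point per library, shape by form of the index in the label, line at the group mean, with WT_CAF 1 numbered. In the upper row (Slit3, Nrp1, Epha3, Efna2) the fibroblasts are higher, in the lower row (Efna1, Epha2, Efnb2, Sema4d) the tumor cells are, and WT_CAF 1 is the WT_CAF library nearest to the tumor cells in all 8 panels.

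Normal and tumor fibroblasts were compared next. Sema3e was the only guidance gene called, lower in WT_CAF than in NPF. Limma called 0 of the 48 tested higher and 1 lower, beside 0.277% and 0.673% of all genes tested (0.95% in either direction), and 12 had an unadjusted p under 0.05 (16.9% of all genes). Sema3e stood at 24.4, 7.48 and 7.77 FPKM in NPF, above the 2.01, 0.566, 0.164, 0.442 and 1.65 of WT_CAF and the 0.553, 1.01 and 0.871 of KO_CAF. The difference was -2.51 ± 0.45, adjusted p = 0.018. It was -2.98 without WT_CAF 1, where its size rests on WT_CAF 2 alone. Sema3e was not called with a pseudocount of 0.01 (adjusted p = 0.055) or in a fit of the compared groups alone (0.35). Because WT_CAF 1 and 2 are the only other libraries without an index, the size of every difference from NPF in the fit rests on these 5 libraries.

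Another 5 guidance genes were higher in all 5 WT_CAF libraries than in any NPF library, and none of them was called. Efna1 stood at 0.622, 0.559 and 1.33 FPKM in NPF against 3.57 to 14.4 in WT_CAF (2.21 ± 0.59, adjusted p = 0.095). Ephb4 had 6.02, 9.60 and 8.79 FPKM in NPF against 29.9, 22.2, 41.4, 15.1 and 39.4 (1.57 ± 0.37, adjusted p = 0.064). Ephb6, an Eph receptor without kinase activity, stood at 1.42, 1.97 and 1.41 against 19.3, 9.50, 8.82, 3.87 and 9.89 (2.50 ± 0.69, adjusted p = 0.1). The others were Plxna4, at 0.409, 1.43 and 0.765 against 3.27, 4.35, 3.85, 2.01 and 4.28 (1.39 ± 0.44, adjusted p = 0.15), and Sema3b, at 4.31, 2.99 and 5.14 against 5.40, 17.6, 10.5, 26.7 and 10.4 (1.11 ± 0.58, adjusted p = 0.35). Lower in all WT_CAF libraries besides Sema3e were Efna3 and Epha1. Such separation was seen in 5.13% (higher) and 6.05% (lower) of all genes tested. KO_CAF, read against the same 3 NPF libraries, stood at 38.8, 20.4 and 18.5 FPKM for Ephb4, 2.21, 11.6 and 5.51 for Ephb6 and 5.17, 3.87 and 2.06 for Plxna4.

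Efna5 came close to the threshold as well, at 2.06, 3.57 and 3.09 FPKM in NPF and 12.3, 10.6, 6.73, 2.45 and 11.3 in WT_CAF, with WT_CAF 4 inside the NPF range (1.69 ± 0.40, adjusted p = 0.064). Without the index term Efna1 and Ephb4 were called higher (adjusted p 0.015 and 0.012). The count of guidance genes called higher was 8 without WT_CAF 2, where the sizes rest on WT_CAF 1 alone and the counts over all genes went from 37 to 598 higher and from 90 to 732 lower, and 2 without WT_CAF 4 or without WT_CAF 5 (Efna5 and Ephb4). The median difference of the tested guidance genes was 0.57, against -0.01 over all genes, and 39 of 48 were above zero. Counted library by library, 16 to 31 of the 48 were above the NPF range, where 28.9% to 34.9% of all genes were. Slit3 was higher in WT_CAF 2 to 5 than in any NPF library, and its difference was 0.25 ± 1.25, adjusted p = 0.96. Without WT_CAF 1 the Slit3 difference was 3.10, a size that rests on WT_CAF 2 alone. Without WT_CAF 2 it was -2.61, which rests on WT_CAF 1 alone. Marker lists moved with this comparison: the 8 acinar markers summed to 930.8 to 38070 FPKM in NPF and 24.6 to 579.2 in WT_CAF, and the 9 epithelial markers to 5.73 to 33.3 and 29.97 to 626.6. The 6 pericyte markers summed to 4.14 to 21.8 FPKM in NPF, 2.59 in WT_CAF 1 and 49.8 to 90.6 in WT_CAF 2 to 5. With overlap, the 4 mesothelial markers summed to 8.93 to 35.9 in NPF and 18.7 to 178.4 in WT_CAF. The 8 myeloid markers, also overlapping, summed to 15.8 to 94.8 and 10.9 to 156.7. Their part in these differences was not tested.

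**Figure D4:**
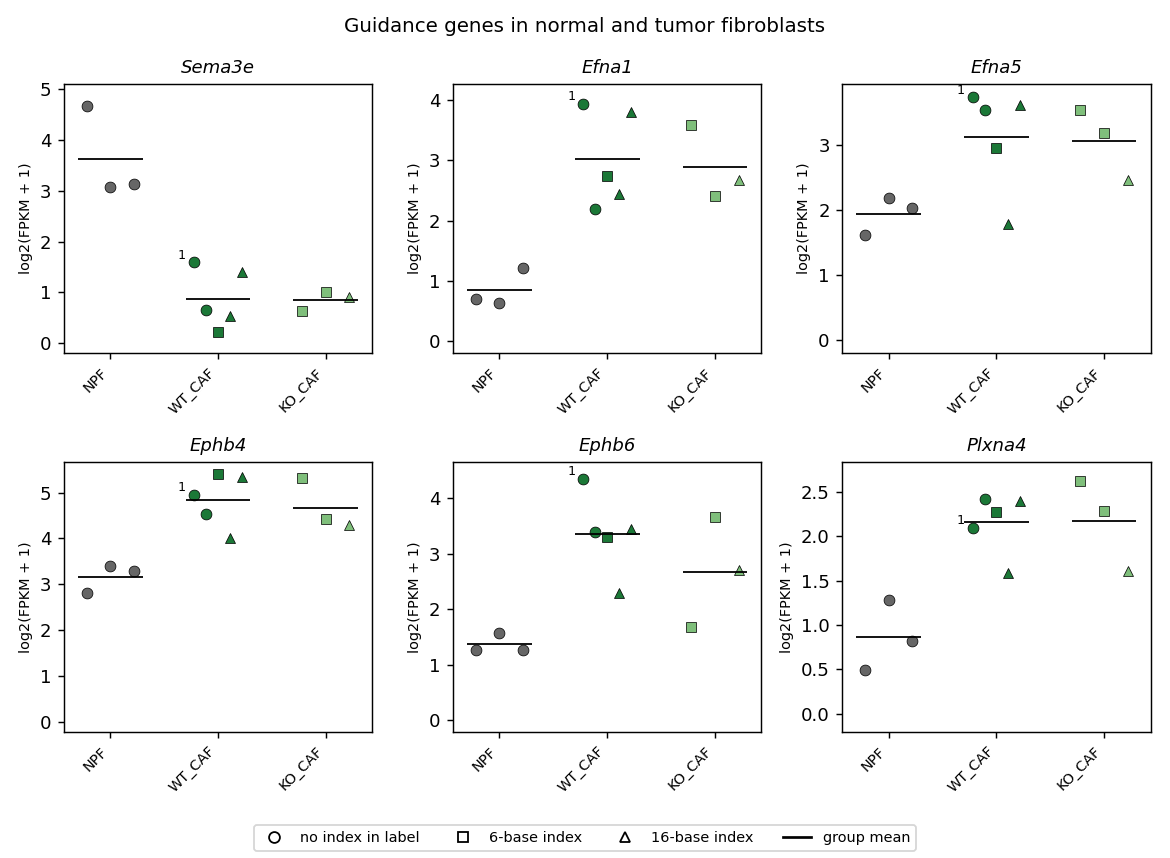
Level in log2(FPKM + 1) of 6 guidance genes in NPF, WT_CAF and KO_CAF, 1 point per library, shape by form of the index in the label, line at the group mean, with WT_CAF 1 numbered. Sema3e lies below NPF in all 8 tumor fibroblast libraries, and Efna1, Ephb4, Ephb6 and Plxna4 lie above it in all 8.

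Loss of Saa3 was compared within each cell type. In fibroblasts no guidance gene was called, and none of the 48 tested had an unadjusted p under 0.05 in limma (0.00748% of all genes were called, and 0.935% had such a p). The genes with the smallest p were Slit1 (-0.88 ± 0.49, adjusted p = 1), Sema3d (1.29 ± 0.85, adjusted p = 1) and Efna4 (-0.60 ± 0.45, adjusted p = 1). Slit1 stood at 0.163, 1.10, 5.89, 0.152 and 0.467 FPKM in WT_CAF and 1.42, 0.129 and 0.231 in KO_CAF, and Sema3d, at 0.177, 8.23, 0.603, 5.81 and 1.79 and 0.560, 15.3 and 9.66, ranged as widely within a group as between them. Slit3, the highest guidance gene, differed by 0.55 ± 1.15, adjusted p = 1. For none of the 48 were the groups apart (0.464% of all genes were higher and 0.733% lower without overlap).

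In tumor cells no guidance gene was called either (0% of all genes were), and 3 of the 48 had an unadjusted p under 0.05, beside 3.95% of all genes. These were Ephb2 (1.60 ± 0.57, adjusted p = 1), Epha7 (-0.62 ± 0.22, adjusted p = 1) and Plxnd1 (-1.15 ± 0.49, adjusted p = 1). Ephb2 stood at 0.674, 6.47, 8.80 and 0.431 FPKM in WT_tumor and 12, 4.61 and 13.6 in KO_tumor. Epha7 stood at 1.71, 1.44, 0.695 and 1.80 and 0.105, 1.14 and 0.638, and Plxnd1, the receptor of Sema3e, at 4.96, 10.2, 9.68 and 27.7 and 4.41, 0.909 and 9.70. The groups overlapped for each of the 3, and of the 48 Sema6c alone was lower in every KO_tumor library than in any WT_tumor library (2.25% of all genes, and 1.36% for higher). For the difference between the knockout effects in tumor cells and fibroblasts no guidance gene was called (0% of all genes), and 1 had an unadjusted p under 0.05 (1.38% of all genes). That gene was Epha7 (-0.83 ± 0.34, adjusted p = 1), followed by Sema3f (1.59 ± 0.80, adjusted p = 1) and Plxnb1 (1.12 ± 0.63, adjusted p = 1). The missing calls do not show that levels were alike with and without Saa3.

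The form of the index in the labels went with differences in 13 guidance genes. Between libraries with a 16-base and a 6-base index, within the same groups, limma called 1 of 48 higher (6.66% of all genes) and 12 lower (11.2% of all genes). Sema4f was the higher one. The lower ones were Epha2, Ephb2, Plxna1, Plxnb1, Plxnb2, Plxnd1, Sema4a, Sema4b, Sema4c, Sema4g, Sema5a and Sema7a. Sema7a, a lipid-anchored semaphorin, had the largest value, -3.12 ± 0.55, adjusted p = 0.0012. It stood at 13.6, 8.21, 29.99, 0.0287 and 0.315 FPKM in WT_CAF, where libraries 4 and 5 have the 16-base index, at 12.5, 1.77 and 1.17 in KO_CAF, where library 3 has it, and at 0.207, 8.25, 21.7 and 12.2 and 28.4, 1.96 and 10.6 in WT_tumor and KO_tumor, where libraries 1 and 2 have it. The 16-base libraries were the lowest of their group in each case. The median over the tested guidance genes was -0.54, against 0.03 over all genes, and 39 of 48 were below zero. The labels do not say what the index form stands for in the preparation of these libraries.

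**Figure D5:**
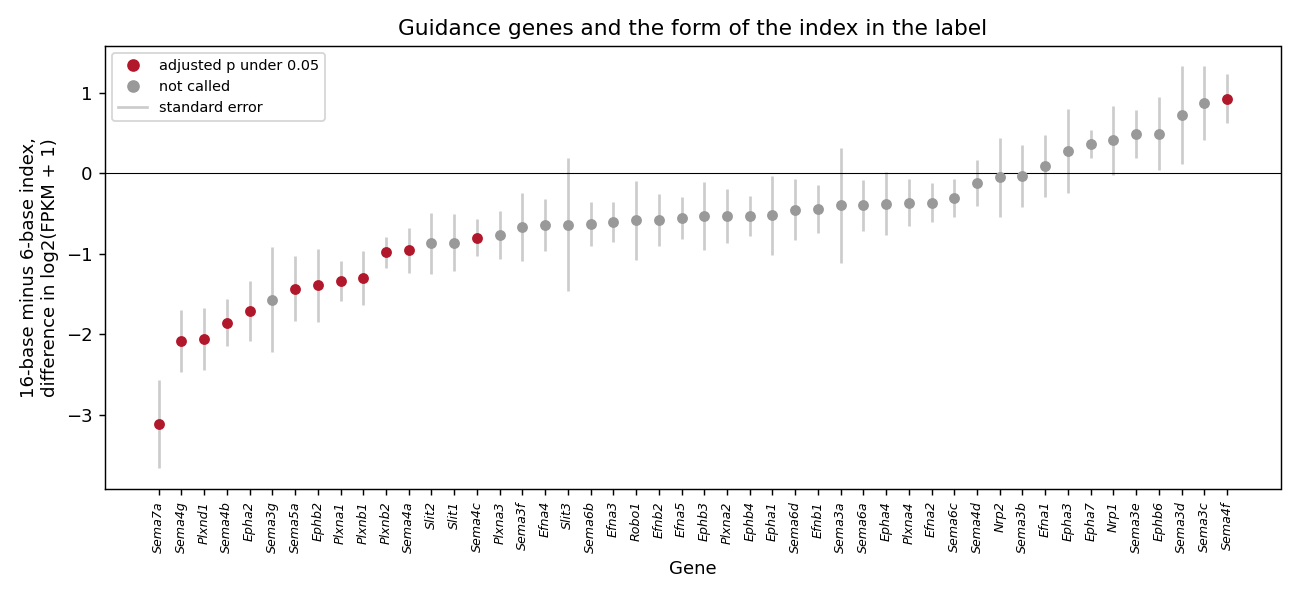
Difference in log2(FPKM + 1) between libraries with a 16-base and with a 6-base index for the 48 tested guidance genes, in order of size, bars showing the standard error. Of the 13 genes called (red), 12 lie below zero, and Sema7a is lowest at -3.12.

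Other guidance genes were read from lists drawn up by function. Of 12 tested netrin, RGM and FLRT family genes, 1 was higher and 6 were lower in WT_tumor than in WT_CAF, and 1 higher and 7 lower in KO_tumor than in KO_CAF (9.05% higher and 12.5% lower over all genes with Saa3, 13.0% and 15.4% without it), with list medians of -1.51 and -1.76 (0.07 and 0.05 over all genes). Flrt3, an adhesion protein that binds Unc5 receptors, was the higher one, at 43.9, 13.7, 11 and 11.8 FPKM in WT_tumor and 4.91, 1.99, 0.458, 3.72 and 2.12 in WT_CAF (3.43 ± 0.50, adjusted p = 0.00075). Unc5a, a netrin receptor, was at 0.465, 4.80, 6.37, 3.60 and 2.81 in WT_CAF and 0.416, 0.0779, 0.237 and 0.256 in WT_tumor (-2.16 ± 0.40, adjusted p = 0.0024). Flrt2, an adhesion protein of the same family as Flrt3, was lower in both comparisons (-2.08 ± 0.49, adjusted p = 0.0093 and -2.57 ± 0.50, adjusted p = 0.0025). Of 11 tested coreceptors, 1 was higher and 3 lower in each comparison, and the higher count lay near or below those shares of all genes. Met, a partner of class B plexins, was higher, at 15, 14.3, 15 and 12.1 FPKM in WT_tumor and 8.37, 3.52, 3.25, 4.48 and 5.56 in WT_CAF (1.52 ± 0.32, adjusted p = 0.005, and 2.72 ± 0.32, adjusted p = 0.00016 between the KO groups). Chl1, a cell adhesion molecule that associates with neuropilin, was lower, at 0.913, 45.5, 29.3, 51.5 and 16.2 in WT_CAF and 0.0332, 0.0692, 0.869 and 0.0197 in WT_tumor (-4.72 ± 0.79, adjusted p = 0.0014). Limma called no gene of these lists between NPF and WT_CAF or by loss of Saa3. Between NPF and WT_CAF, 4 of the 12 and 3 of the 11 had an unadjusted p under 0.05 (16.9% of all genes). By loss of Saa3, 1 of each list had such a p in fibroblasts (0.935% of all genes) and 1 and 0 in tumor cells (3.95%).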

How the data were processed

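Per the labels' protocols, poly(A) RNA of sorted cells was prepared with an Illumina TruSeq kit for sequencing on a HiSeq2000. The deposited table holds the authors' FPKM for 23951 gene symbols in 18 libraries. Per the submitters' processing notes, Cuffnorm and Cufflinks 2.2.1 were used with TopHat2 2.0.10, SAMtools 0.1.19, Bowtie 1.0.0 and FastQC, and mm9 is the only mouse build named. Order, settings and annotation: not given in the sources used here. These FPKM are model estimates. Read counts were not analysed, which leaves the depth per library unknown. FPKM summed to 396646 to 919859 per library, and 10657 to 11670 genes reached 1 FPKM.

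The 13369 genes that reached 1 FPKM in 3 or more libraries (10582 were removed) were fitted with limma 3.58.1 in R 4.3.3 on log2(FPKM + 1), with group and index form (none, 6 or 16 bases) as terms and 11 residual degrees of freedom. Tests were two-sided, with Benjamini-Hochberg adjustment over all genes tested and a threshold of 0.05. The script was tested on simulated data. Each p-value of the main fit sets a difference against a spread estimated from these libraries over all 5 groups. Alternatives were pseudocounts of 0.1 and 0.01, no filter or a filter of 5 FPKM, no index term, quantile or 75th percentile scaling, the compared groups alone, robust moderation, and leaving out each library, or WT_CAF 1 with WT_tumor 4. Library values are given for the called genes with the smallest adjusted p (up to 12 per comparison, and for most other called genes), and for the most abundant gene of each role. Where none was called, the 3 with the smallest p are named. Of the wider lists, at most 5 called genes per comparison were named, by smallest p. Other guidance genes whose values are given, among them uncalled ones that differed from NPF, were chosen after their values were seen. Genes and lists were chosen with earlier results of these data known. Promoter sequences come from RefSeq tables of GRCm38.p6 and were not joined to coordinates of the deposited files.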

Additional observations from a re-analysis of the deposited data

Results flagged for a closer look

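Among 96 groups of 4 or 5 libraries (48 tested guidance genes in WT_CAF and WT_tumor), 8 held a library whose gap to its nearest neighbour passed Dixon's critical value. Gaps were taken in log2(FPKM + 1). For independent groups chance gives about 1 in 20, or 4.8. The 48 genes share the same libraries, so the groups are not independent and the count is given only as a description. In 5 of the 8 the library was WT_CAF 1. There Slit3 was at 9.33 FPKM (others 201.5 to 539) and Epha1 at 0.129 (others 0.975 to 1.36). Nrp2 was at 60.9 (others 2.06 to 4.75), Plxna2 at 5.61 (0.850 to 1.11) and Sema4d at 1.73 (0.0721 to 0.373). Efnb1 was at 35.6 FPKM in WT_CAF 3 (others 14.8 to 18.1). In WT_tumor 3, Epha3 was at 0.666 FPKM (others 0.0162 to 0.0653) and Slit1 at 1.61 (others 0.0519 to 0.182). No difference between groups in their response was called for any guidance gene.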

How the results depend on the processing

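Counts of guidance genes called moved most between WT_CAF and NPF. The count called higher (0) became 1 with a pseudocount of 0.1, 1 with quantile normalization and 2 without the index term. The count called lower (1) became 0 with a pseudocount of 0.01, 0 in a fit of the compared groups alone and 2 with no filter, where Robo3 was added. In a fit of the compared groups alone, 5 were called higher and 6 lower in WT_tumor than in WT_CAF (10 and 9 in the fit of all groups). Over all genes, 238 were called higher and 504 lower (1210 and 1670 in the fit of all groups). Leaving out 1 library at a time gave 0 to 8 higher and 1 to 1 lower between WT_CAF and NPF, 8 to 11 higher and 5 to 11 lower between WT_tumor and WT_CAF (5 without WT_CAF 3), and 9 to 12 higher and 7 to 11 lower between KO_tumor and KO_CAF. It gave 0 to 0 in both directions for both knockout comparisons and for the difference between them. Over all genes, these fits gave 440 to 1551 higher and 761 to 2002 lower between WT_tumor and WT_CAF. Between KO_tumor and KO_CAF they gave 891 to 2057 higher and 1302 to 2378 lower. For the called genes, and for the 3 with the smallest p where none was called, no difference changed sign under any alternative. Other differences were not followed in this way. That of Slit3 between WT_CAF and NPF went from 0.25 to -2.61 without WT_CAF 2. Slit3, Epha2, Sema3e, Sema4a and Sema4c were called in both comparisons of tumor cells with fibroblasts under every alternative run, and so was Efna2 except under the filter of 5 FPKM, which removed it. A fit of the compared groups alone estimates both the spread and the index term from fewer libraries. In KO_tumor against KO_CAF it called 12 higher and 8 lower, beside 9 and 10 in the fit of all groups. Over all genes it called 1538 and 1917, beside 1741 and 2057. Why calls were lost under this or any other alternative was not tested. Without read counts, the depth behind low values such as those of Epha7 and Sema4f is unknown. No paired analysis was possible because the labels give no replicate numbers, and the numbers used here follow the order of deposition.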

Other observations

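Some of the enzymes that cut guidance proteins and of the proteins that carry their signal inside the cell were called between tumor cells and fibroblasts, and most were not. Of 8 tested proteases, 3 were lower in WT_tumor than in WT_CAF and the same count was lower in KO_tumor than in KO_CAF, and none was higher, beside 12.5% and 15.4% of all genes tested called lower. Bmp1, a secreted metalloprotease, stood at 67.4, 405, 492, 237 and 268 FPKM in WT_CAF and 49.1, 38.8, 38.8 and 55.5 in WT_tumor (-2.87 ± 0.54, adjusted p = 0.0027 and -2.94 ± 0.55, adjusted p = 0.0019). Every WT_CAF library was above every WT_tumor library. Of 35 tested cytoplasmic effectors, 6 were higher and 4 lower with Saa3 (9.05% and 12.5% of all genes tested), and 6 higher and 8 lower without it (13.0% and 15.4%). Pak1, a kinase downstream of Rac1, was higher in tumor cells (2.2 ± 0.43, adjusted p = 0.0031 and 2.52 ± 0.43, adjusted p = 0.0012).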
